A study of Mus musculus with 4 samples.

Results

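Among the T cells of mouse melanomas, a small set held transcripts of Csf2, which encodes the myeloid growth factor GM-CSF, or of Ccl1, which encodes a chemokine that acts on CCR8. They were chosen from raw UMI counts, a UMI being a tag that counts each captured RNA molecule once. A cell entered when it had 300 or more genes detected, no more than 60000 UMIs and no more than 10% of them mitochondrial. It also held at least 1 UMI of Cd3d, Cd3e and Cd3g in sum, no UMI of Csf1r, Cd79a or Foxp3, and at least 2 UMIs of Csf2 and Ccl1 in sum. These cells, called members here, numbered 173 of 25954 kept cells and of 9826 T cells that met every criterion but the last, called gated T cells. The remaining 9653 gated T cells are the other gated T cells. Ifng and Xcl1, which mark such cells together with Cd3e, were named with the choice of the members. The levels of Csf2, Ccl1, Ifng, Xcl1 and the CD3 genes are therefore given as descriptions, with no test result.

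An activated T cell switches on cytokine genes within hours of antigen contact, when calcium-driven NFAT factors act together with AP-1 and NF-kappaB at their promoters. GM-CSF acts on monocytes, macrophages and dendritic cells, CCL1 attracts cells with CCR8, among them tumour regulatory T cells, XCL1 attracts XCR1-positive dendritic cells, and interferon-gamma acts on nearly every cell of a tumour. CD8 T cells that meet antigen secrete interferon-gamma, XCL1, CCL3 and CCL4, while GM-CSF is made by T cells of both the CD4 and the CD8 lineage.

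The cells came from B16-GP33 melanomas, a melanoma line that carries the viral peptide GP33, grown under the skin of C57BL/6 mice for 18 days. On days 8, 10 and 12 the mice were given 200 ug of control IgG, of an antibody against the inhibitory receptor PD-1 (anti-PD-1) or of one against the selectin ligand PSGL-1 (anti-PSGL-1), or 200 ug of each of the last 2, called the combination. All 4 groups carried the tumour and received an antibody, and neither the antibody clones nor the age, sex or number of mice is given in the sources used here. Propidium iodide-negative, CD45.2-positive cells of enzymatically digested tumours were sorted and captured on the 10x Genomics platform, as 1 library per group. The sources do not say whether a library pooled several mice. Differences between treatments therefore had no replicate check and no test was made of them. Intervals are exact 95% intervals that cover counting error only. Where 4 values are given, they stand for IgG first, then anti-PD-1, then anti-PSGL-1, and last the combination.

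Sequences upstream of the 4 cytokine genes are shown because T cell activation acts on the promoters of such genes. Each run holds the 250 bases before the RefSeq transcription start (GRCm38.p6), 5′ to 3′ on the strand of the gene, with matches to the NFAT core GGAAA, on either strand, in capitals. The windows are chr11:54249900-54250149 (minus strand) for Csf2, chr11:82179813-82180062 (minus) for Ccl1, chr10:118440796-118441045 (plus) for Ifng and chr1:164935523-164935772 (minus) for Xcl1. All lie upstream of the gene as RefSeq places it. The RefSeq start of Csf2 lies 232 bases upstream of the start that GENCODE vM21 gives. By that annotation the window of Csf2 leaves out the 232 bases next to the start, and no motif was searched in them. GENCODE vM21 lets the Ccl1 gene run over chr11:82176657-82305690, so by that annotation the window of Ccl1 lies inside the gene.
Csf2: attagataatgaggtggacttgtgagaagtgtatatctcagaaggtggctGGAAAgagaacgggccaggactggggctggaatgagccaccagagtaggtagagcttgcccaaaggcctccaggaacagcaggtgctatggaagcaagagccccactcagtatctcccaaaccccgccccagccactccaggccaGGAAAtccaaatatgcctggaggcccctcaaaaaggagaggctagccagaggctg
Ccl1: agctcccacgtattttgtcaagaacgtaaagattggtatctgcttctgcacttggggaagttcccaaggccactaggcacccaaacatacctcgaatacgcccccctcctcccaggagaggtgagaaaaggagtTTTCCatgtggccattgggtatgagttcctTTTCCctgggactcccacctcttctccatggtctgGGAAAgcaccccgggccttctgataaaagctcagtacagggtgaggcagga
Ifng: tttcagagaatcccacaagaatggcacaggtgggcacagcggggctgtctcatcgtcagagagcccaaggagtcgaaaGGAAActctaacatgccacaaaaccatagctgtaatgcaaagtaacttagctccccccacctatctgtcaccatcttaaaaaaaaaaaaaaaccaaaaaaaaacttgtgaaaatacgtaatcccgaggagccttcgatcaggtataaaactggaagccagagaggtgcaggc
Xcl1: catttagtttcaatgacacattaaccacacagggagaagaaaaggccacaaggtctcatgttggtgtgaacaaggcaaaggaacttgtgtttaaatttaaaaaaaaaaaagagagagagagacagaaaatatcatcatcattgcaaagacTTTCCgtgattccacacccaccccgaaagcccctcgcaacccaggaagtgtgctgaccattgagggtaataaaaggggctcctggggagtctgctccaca
The NFAT core was found 2 times for Csf2, 3 times for Ccl1 and 1 time each for Ifng and Xcl1. It was found at least 1 time in 55.6% of 32851 promoter windows of the same length. The AP-1 letters TGANTCA, searched the same way, were found in none of the 4 windows and in 6.75% of all windows. A match is a description of the letters and not of binding.

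The libraries held 40913129 to 53303195 UMIs, and 9465, 5238, 6869 and 4382 cells were kept, of which 3425, 1676, 2614 and 2111 were gated T cells. Pairs of libraries shared 5 to 13 cell barcodes, and 2 of these shared barcodes belonged to a member. Members were deeper than the other gated T cells, with medians of 9714, 13406, 10751 and 19725 UMIs per cell against 3234, 7644, 5593 and 9552. Their median mitochondrial share was 2.17% to 2.78%. T cell markers outside the rule, 6 genes, were all read in the members of every library, at 813, 962, 1195 and 1318 counts per 1000000 UMIs (CPM), against 1192, 1128, 1181 and 1286 CPM in the other gated T cells. Of 5 B cell markers only 1 had a UMI, in the combination library. Most gamma-delta T cell markers looked for were not among the 27998 genes measured. Of the 3 that were, only 1 had a UMI, in the anti-PSGL-1 library, so the presence of gamma-delta T cells could not be judged.

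Members made up 0.730% (25 of 3425; interval 0.473% to 1.08%), 3.22% (54 of 1676; 2.43% to 4.18%), 1.95% (51 of 2614; 1.46% to 2.56%) and 2.04% (43 of 2111; 1.48% to 2.73%) of gated T cells. The IgG library had the lowest share, and its interval lay below those of the 3 treated libraries. Since deeper cells reach 2 UMIs more readily, every cell was also thinned to 2000 UMIs and the rule applied again. The shares were then 0.467% (0.262% to 0.770%), 1.43% (0.917% to 2.12%), 1.10% (0.735% to 1.57%) and 0.609% (0.325% to 1.04%). After thinning the anti-PD-1 interval still lay above that of IgG, while the intervals of IgG, anti-PSGL-1 and the combination overlapped. Thinning left out 0 of 25, 0 of 54, 1 of 51 and 0 of 43 members for having too few UMIs, and 446, 67, 101 and 33 other gated T cells. Among gated T cells with 5000 to 15000 UMIs the shares were 1.74%, 3.20%, 2.42% and 1.55%, and all 4 intervals overlapped. Within that range the IgG share lay above that of the combination, the reverse of the order over all cells, and the intervals of the 2 overlapped.

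Macrophage- and monocyte-like cells, taken as Csf1r-positive cells without CD3 transcripts, gave the level that free RNA could reach. At median depths of 5174, 6749, 7446 and 8447 UMIs, 1 of 1869, 0 of 1685, 5 of 1775 and 1 of 1249 of them held 2 or more UMIs of the 2 genes. These were 0.0535%, 0%, 0.282% and 0.0801%, below the share of gated T cells in each library, and a count of 0 allows a share of up to 0.219% by the exact interval. Just outside the rule, 44, 29, 58 and 45 gated T cells held exactly 1 UMI of the 2 genes. Just inside it, 5, 17, 7 and 14 members held exactly 2. Of all kept cells with 2 or more UMIs of the 2 genes, members were 61.0%, 88.5%, 70.8% and 79.6%. Outside the members, 13, 4, 12 and 8 such cells had no CD3 transcripts. A further 2, 3, 3 and 1 had CD3 and Foxp3, and 1, 0, 6 and 2 had CD3 and Csf1r or Cd79a. Members held 44.3%, 85.9%, 75.7% and 84.8% of all Csf2 UMIs and 72.7%, 90.3%, 80.3% and 57.5% of all Ccl1 UMIs of the kept cells. In the IgG library 33.6% of Csf2 UMIs, and in the combination 30.1% of Ccl1 UMIs, lay in cells without CD3 transcripts.

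**Figure D1:**
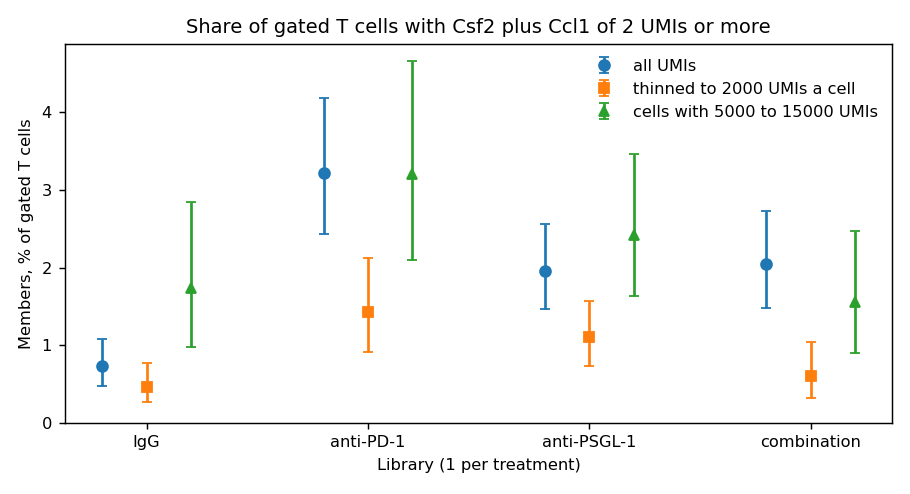
Share of gated T cells that are members (y axis, percent) in each library (x axis), with all UMIs, with every cell thinned to 2000 UMIs, and within cells of 5000 to 15000 UMIs; bars are exact 95% binomial intervals. The anti-PD-1 library is highest in all 3 measures, from 1.43% after thinning to 3.22% with all UMIs.

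Ccl1 was read in more members than Csf2 in every library. Cells with Ccl1 and no Csf2 numbered 12, 32, 25 and 26, cells with Csf2 and no Ccl1 4, 11, 10 and 10, and cells with both 9, 11, 16 and 7. Ccl1 ranged from 0 to 103, 158, 84 and 43 UMIs per cell, with medians of 4, 2, 4 and 2. Csf2 ranged from 0 to 17, 27, 115 and 293 UMIs, with medians of 1, 0, 1 and 0. A few cells thus carried most of the transcripts. A single cell of the combination library held 293 of its 395 Csf2 UMIs (74.2%), and a cell of the anti-PSGL-1 library held 30.5% of that library's. Summed over members, Csf2 stood at 206, 230.5, 595 and 496 CPM, and Ccl1 at 1588, 897, 919 and 338 CPM. Ccl1 was highest in the IgG members and lowest in the combination members. The rule asks for a fixed 2 UMIs, so a deeper cell can be a member at a lower CPM of these genes. Median depth was 9714 UMIs in the IgG members and 19725 in the combination members, and its part in these levels was not tested.

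Interferon-gamma transcripts were read in 21 of 25, 46 of 54, 34 of 51 and 41 of 43 members. Their medians were 3, 4, 1 and 18 UMIs per cell, and the highest cells held 202, 824, 210 and 180 UMIs. The sums were 2107, 2368, 797 and 1895 CPM, against 139, 367, 149 and 297 CPM in the other gated T cells. One cell held 45.6% of the anti-PD-1 members' Ifng. Xcl1, the ligand of XCR1, was read in 12 of 25, 33 of 54, 23 of 51 and 13 of 43 members, at 714, 1359, 1544 and 803 CPM against 99.0, 98.0, 143 and 30.9 CPM. In the combination library 56.5% of the members' Xcl1 lay in 1 cell. After thinning to 2000 UMIs, Ifng was read in 56.0%, 44.4%, 36.0% and 74.4% of members and in 12.4%, 19.4%, 14.6% and 23.7% of the other gated T cells. In the Csf1r-positive cells it was read in 0.341%, 0.483%, 0.291% and 0.244%.

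The cytokines differed in how often they met in one cell. Ifng and Xcl1 were both read in 11 of 25, 28 of 54, 16 of 51 and 13 of 43 members. In the combination library 28 of 43 members had Ifng without Xcl1 and none had Xcl1 without Ifng. At least 4 of Ifng, Xcl1, Il2, Tnf, Ccl3 and Ccl4 were read in 7, 21, 7 and 19 members, and none of the 6 in 2, 0, 8 and 1. The anti-PSGL-1 members thus held the most cells with none of these transcripts.

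**Figure D2:**
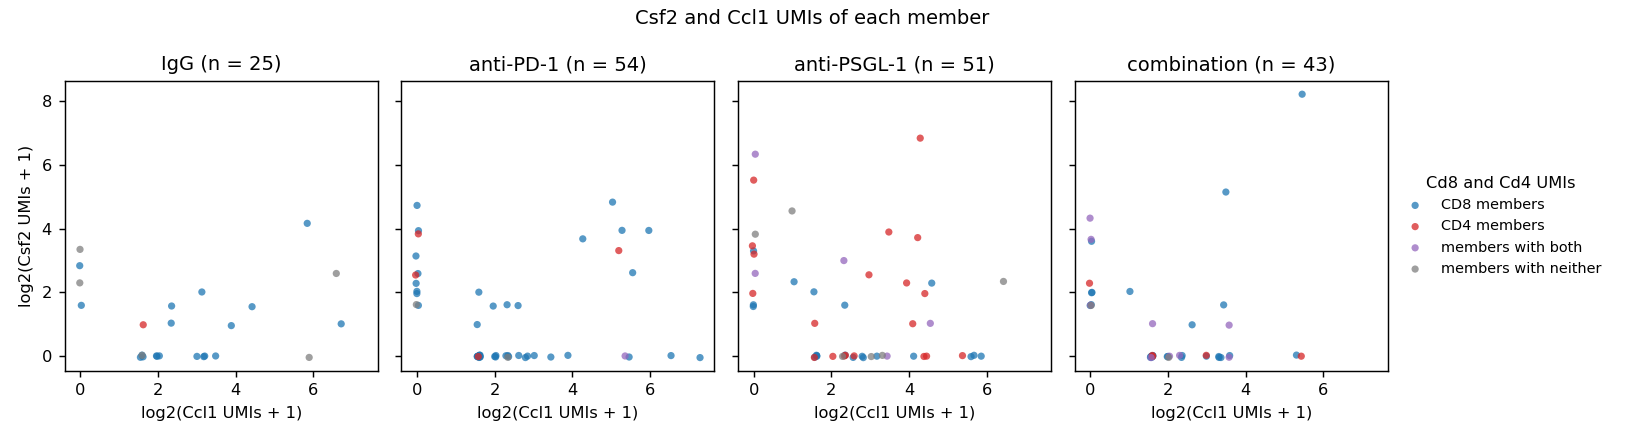
Csf2 (y axis) and Ccl1 (x axis) of every member, each as log2(UMIs + 1) with a small random shift so that equal cells can be seen, in 1 panel per library, coloured by whether Cd8a or Cd8b1, Cd4, both or neither were read. Most points lie on an axis, with 1 transcript read and not the other, and 1 cell of the combination library stands alone at 293 Csf2 UMIs.

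Most members carried transcripts of the CD8 co-receptor, except in the anti-PSGL-1 library. Members with Cd8a or Cd8b1 and no Cd4, called CD8 members, numbered 19 of 25 (76.0%), 47 of 54 (87.0%), 20 of 51 (39.2%; interval 25.8% to 53.9%) and 27 of 43 (62.8%). Members with Cd4 alone, called CD4 members, numbered 1, 4, 20 and 5, members with both 0, 1, 5 and 9, and members with neither 5, 2, 6 and 2. In the anti-PSGL-1 library the 20 CD4 members were 39.2% of the members, while 13.0% of the other gated T cells had Cd4 alone. Of all gated T cells with Cd4 alone, 1 of 281, 4 of 88, 20 of 354 and 5 of 105 were members, or 0.356%, 4.55%, 5.65% (3.48% to 8.59%) and 4.76%. Of those with Cd8 alone, 1.01%, 3.90%, 1.37% (0.840% to 2.11%) and 1.54% were. Cd4 is read at few UMIs per cell, so cells with neither transcript may belong to either lineage. Of the cells with both, 1 of 1, 0 of 5 and 1 of 9 were among the cells with the highest doublet scores in the 3 treated libraries.

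Members were then compared with the other gated T cells of the same library, as summed counts over the 4 libraries with the library as a block (edgeR's quasi-likelihood test, Benjamini-Hochberg adjustment). Genes at an adjusted p under 0.05 and at least 1.5-fold apart were called. Of 10720 genes tested, 289 (2.70%) were higher and 418 (3.90%) lower in members, and the median log2 fold change was -0.05. Genes of the rule were left out of the test. Ifng and Xcl1 were not, so these counts can include them. Because the 4 libraries carry 4 treatments, the spread in this test is that of the difference between them. The shares above are the background for the gene groups that follow, and all fold changes are on the log2 scale, members over other gated T cells. The gene lists were chosen with earlier results of these data known, so the group counts are descriptions and not independent support. Where a gene is said not to overlap between the groups, the share of all genes tested that did not was not counted.

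Ligands of the TNF family, which T cells display or shed to act on dendritic cells, B cells, osteoclast precursors and other T cells, were the group most often higher: 7 of 9 tested, with none lower and a median of 1.79. Tnfsf11, which encodes RANKL, stood at 57.2, 159.8, 210.0 and 152 CPM in members and at 11.9, 9.73, 16.6 and 7.16 CPM in the other cells, with no overlap between the groups. Its log2 fold change was 3.76 (SE 0.22, adjusted p 1.3e-08). Cd70, the ligand of CD27, stood at 99.2, 62.9, 131 and 51.5 CPM against 8.82, 6.42, 9.54 and 8.33 CPM, a log2 fold change of 3.28 (SE 0.21, adjusted p 2.7e-08). Tnfsf8, the ligand of CD30, stood at 22.9, 49.8, 234 and 84.2 CPM against 17.6, 7.74, 24.1 and 6.99 CPM. It differed by 2.86 (SE 0.29, adjusted p 7.9e-06), although the IgG members lay within the range of the other cells. Cd40lg, by which helper T cells activate dendritic and B cells, was higher in 3 of 4 libraries and differed by 1.97 (SE 0.38, adjusted p 0.003), with 41.1 CPM in the anti-PSGL-1 members and 3.82 to 10.5 CPM in the other members. Tnfsf4 (OX40 ligand), Tnfsf9 (4-1BB ligand) and Tnfsf10 (TRAIL) were also called higher. Fasl, with a log2 fold change of -0.34, and Tnfsf14, with 1.24, were not called.

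Secreted cytokines other than those used in the choice were mixed, with 4 of 14 called higher and 2 lower. Lta, which encodes lymphotoxin alpha, stood at 15.3, 28.8, 25.3 and 15.1 CPM in members and at 4.28, 2.12, 5.19 and 1.47 CPM in the others. It differed by 2.86 (SE 0.38, adjusted p 0.00012). Penk, the proenkephalin gene, stood at 145, 41.9, 422 and 122 CPM against 34.8, 28.7, 24.1 and 21.6 CPM and differed by 2.53 (SE 0.36, adjusted p 0.00024). One cell held 53.2% of it in the anti-PSGL-1 members and another 79.4% in the combination members. Areg, which encodes the growth factor amphiregulin, stood at 687, 259, 207 and 652 CPM against 135, 228, 65.5 and 257 CPM. Its log2 fold change was 1.34 (adjusted p 0.00047). Il2, the T cell growth factor, was read in 4 anti-PD-1 members and 3 combination members and in no IgG or anti-PSGL-1 member, which by the exact interval allows up to 13.7% of the 25 IgG members. In the anti-PD-1 library Il2 was also read in 1.48% of Csf1r-positive cells, against 7.41% of members. Its call (2.25, adjusted p 0.038) was lost without the anti-PD-1 library (0.13, adjusted p 0.97) and with DESeq2 (0.62, adjusted p 0.88). Il10, an inhibitory cytokine, was called lower (-2.86, adjusted p 0.029), with 0, 0, 3.16 and 0 CPM against 11.2, 3.11, 7.21 and 5.61 CPM. That call was lost without the IgG (adjusted p 0.091), the anti-PD-1 (0.066) or the combination library (0.12). Tnf, which encodes tumour necrosis factor, was not called, at 11.4, 11.8, 20.5 and 35.2 CPM against 26.8, 22.9, 23.9 and 18.2 CPM.

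Of 14 chemokine genes tested, 2 were higher and 6 lower. Ccl3 and Ccl4, the inflammatory chemokines MIP-1 alpha and beta, were the higher ones. Ccl3 stood at 2347, 2017, 523 and 1721 CPM in members and at 392, 375, 355 and 451 CPM in the other cells, with no overlap (1.87, SE 0.21, adjusted p 2.1e-05). Ccl4 stood at 1351, 1524, 549.5 and 1233 CPM against 539.9, 467, 529 and 392 CPM (1.18, adjusted p 0.0005). In the anti-PSGL-1 library the counting intervals of members and other cells overlapped for Ccl4 (493 to 610.4 against 519 to 539.8 CPM) and not for Ccl3 (468 to 582 against 346 to 363 CPM). Single cells weighed on these sums: 57.6% of Ccl3 and 49.8% of Ccl4 of the anti-PD-1 members lay in 1 cell. Ccl5, the chemokine of resting effector and memory CD8 T cells, went the other way. It stood at 1462, 1075, 875 and 2455 CPM in members and at 4139.5, 4675, 4883 and 7262 CPM in the others (-1.95, SE 0.11, adjusted p 1.3e-08). Cxcl2, Ccl6 and Ccl22, which myeloid and dendritic cells make, were lower in members, with log2 fold changes of -3.34, -2.08 and -3.17. Their sums in members were 8.80 to 28.4 CPM for Cxcl2, 6.28 to 19.1 CPM for Ccl6 and 0 to 4.74 CPM for Ccl22.

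Genes of the response to T cell receptor signals were called higher in 13 of 31 and lower in 3, with a median of 0.49. Crtam, an adhesion receptor induced on activated T cells, stood at 122, 99.5, 107 and 59.1 CPM against 12.3, 11.6, 13.4 and 14.8 CPM, a log2 fold change of 2.81 (SE 0.20, adjusted p 9.4e-08). Il2ra, the high-affinity IL-2 receptor chain, stood at 103, 132, 152 and 127 CPM against 27.0, 33.2, 26.4 and 30.8 CPM, a change of 2.12 (SE 0.14, adjusted p 2.7e-08). Gadd45b, a stress and activation gene, stood at 733, 512, 715 and 687 CPM against 259.6, 195, 250.5 and 240.0 CPM (1.45, adjusted p 1.3e-08). None of these 3 genes, which were picked by fold change, overlapped between the groups. Spry1, a feedback inhibitor of Ras signalling, was called at 1.70 (adjusted p 0.025) and lost its call without the combination (1.08, adjusted p 0.4) or the IgG library (1.66, adjusted p 0.059). Genes of the NF-kappaB pathway, Nfkb1, Nfkbia and Rel, were among the higher ones, as were Irf4, Irf8, Myc and Bhlhe40. Nr4a1, an early marker of receptor signals, was at 0.49 and below the fold needed. Egr1, Ier3 and Rgs1 were called lower, at -0.94, -0.86 and -0.60, and Ier3 stood at 0.09 among cells with Cd8 alone. The calls of Egr1 and Ier3 were lost without the IgG (adjusted p 0.16 and 0.14), the anti-PD-1 (0.14 and 0.078) or the anti-PSGL-1 library (0.23 and 0.21). Rgs1 fell short of 1.5-fold without IgG (-0.41).

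Among costimulatory receptors 3 of 11 were higher and 1 lower. Tnfrsf4, which encodes OX40, stood at 492, 585, 568 and 587 CPM against 228, 245, 226 and 259 CPM (1.20, SE 0.09, adjusted p 2e-07). Tnfrsf18 (GITR) and Tnfrsf9 (4-1BB) were higher by 0.68 (adjusted p 0.0002) and 0.67 (adjusted p 0.00087), and Tnfrsf9 fell short of 1.5-fold without IgG (0.49). Icos was lower, at 49.6, 106, 103 and 116 CPM against 264, 177, 232 and 211 CPM (-1.15, adjusted p 0.00035). Of 13 inhibitory receptors and exhaustion genes 2 were higher and 2 lower. Cd200 (1.57, adjusted p 0.00036) and Cd160 (0.72, adjusted p 0.012) were higher, and Klrg1 (-1.24) and Cd244 (-0.93) lower. Cd160 was not called without anti-PD-1 (0.42, adjusted p 0.13), nor Klrg1 without anti-PSGL-1 (adjusted p 0.14) or the combination (0.14). Cd244 lost its call without any 1 library, with adjusted p from 0.06 to 0.15. Pdcd1, which encodes PD-1, stood at 374, 466, 339.5 and 557 CPM in members and at 323, 511, 312 and 593 CPM in the other cells and was not called (-0.01, SE 0.09). Lag3 and Havcr2 were not called either, at 0.06 and -0.12. Selplg, which encodes PSGL-1, was below the other cells in all 4 libraries, at 298, 279, 335 and 375 CPM against 482, 456, 452 and 483 CPM. Its log2 fold change of -0.57 (adjusted p 0.0011) fell short of 1.5-fold.

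The cytotoxic genes went both ways, with 6 of 19 higher and 4 lower. Gzmc, a granzyme of strongly stimulated killer cells, stood at 2153, 2802, 491 and 1297 CPM against 88.6, 823, 111 and 745 CPM (2.22, SE 0.36, adjusted p 0.0007). In the IgG members 75.7% of it lay in 1 cell. Gzme, Gzmd and the granzyme inhibitor Serpinb9b were higher by 1.86 (adjusted p 9.9e-06), 1.79 (adjusted p 1.2e-06) and 2.10 (adjusted p 2.4e-05). Gzmc to Gzmg are neighbours of similar sequence, so their counts may be affected by reads that match more than 1 of them. Gzmk, a granzyme of early effector and memory-like cells, was lower, at 7.63, 10.5, 14.2 and 32.7 CPM against 95.7, 66.3, 105 and 160.0 CPM (-2.63, SE 0.19, adjusted p 9.4e-08). Gzma (-1.72, adjusted p 0.00071) and Lamp1 (-1.08, adjusted p 0.00026) were lower as well. Gzmb and Prf1, the main granzyme and perforin, were not called, at 0.27 and 0.64.

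Of 13 genes of naive and progenitor T cells 6 were lower and 1 higher. S1pr1, the receptor for leaving tissue, stood at 3.82, 0, 12.6 and 1.26 CPM in members and at 78.2, 24.2, 65.4 and 18.8 CPM in the others (-3.31, SE 0.36, adjusted p 1.4e-05). Lef1 (-1.84, adjusted p 0.00051) and Tcf7, the factor of progenitor cells (-1.72, adjusted p 0.0019), were lower as well. Ccr7, a lymph node receptor, was higher, at 565, 355, 433 and 94.3 CPM against 174, 89.8, 176 and 38.1 CPM (1.55, SE 0.12, adjusted p 2e-07). The combination members lay within the range of the other cells for Ccr7. Of 14 chemokine receptors and homing genes 6 were lower, among them Ccr2 (-1.24), Cxcr4 (-1.16) and Itgb7 (-1.15). Ccr8 was the 1 gene called higher in this group, by 1.81 (adjusted p 0.0067), at 22.9, 5.24, 26.8 and 7.54 CPM, and was not called without anti-PSGL-1 (1.43, adjusted p 0.12).

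Il1rl1, the IL-33 receptor, was higher by 2.58 (SE 0.46, adjusted p 0.0016), at 11.4, 13.1, 17.4 and 13.8 CPM against 2.77, 0.662, 5.70 and 1.84 CPM. Cish, a feedback gene of cytokine signals, was higher by 0.96 (adjusted p 2.4e-05), and Ifngr1 (-1.16, adjusted p 5.4e-06) and Socs3 (-1.47, adjusted p 2.8e-05) were lower. In all, 4 of 16 genes of cytokine receptors and signal feedback were higher and 2 lower. Gata3, the factor of type 2 responses, was called at 0.80 (adjusted p 0.0082), stood at -0.01 among cells with Cd8 alone, and lost its call without anti-PSGL-1 (0.55, adjusted p 0.097). It was the only one of 12 subset transcription factors called higher, and 3 were lower, among them Maf (-0.93, adjusted p 0.0072). Of 18 genes of ribosome biogenesis and Myc targets 5 were higher, led by Srm (1.14, adjusted p 5.4e-05), and none lower. Of 20 cell cycle genes none was called by edgeR over all cells, with 2 at an unadjusted p under 0.05 and none called by DESeq2, and the median was -0.01. Among cells of 5000 to 15000 UMIs 4 of the 20 were called lower, beside 282 of all 9658 genes. After thinning 1 of the 20 was called higher, beside 117 of all 8285 genes. Hk2 was the only one of 20 glycolysis and hypoxia genes called (0.96), and was not called without anti-PSGL-1 (0.72, adjusted p 0.056). Of 20 type I interferon genes 4 were lower (Rtp4, Irf7, Zbp1 and Ifi47, from -1.37 to -0.73) and none higher. Among 18 heat shock and dissociation genes Junb was higher by 0.86 (adjusted p 5.6e-06), and Fos (-0.93) and Zfp36 (-1.13) were lower.

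Beyond the lists, the genes with the largest fold changes included Lgals7, Lad1, Wisp1 and Igfbp7. Lgals7, which encodes galectin-7, stood at 22.9, 55.0, 393 and 12.6 CPM against 3.65, 4.37, 5.44 and 4.48 CPM (4.11, SE 0.54, adjusted p 0.00012). It was read in 2, 6, 16 and 5 members, and 1 cell held 83.3% of it in the IgG library. CD8 members held 1 of 6 Lgals7 UMIs in IgG, 1 of 249 in anti-PSGL-1 and 3 of 10 in the combination. Their part of the 42 Lgals7 UMIs in anti-PD-1 is not given here. Lad1, an anchoring filament protein of epithelia, stood at 26.7, 35.4, 39.5 and 21.4 CPM against 2.77, 3.24, 2.23 and 1.13 CPM (3.77, SE 0.33, adjusted p 1.1e-06). No single cell held more than 28.6% of it. Igfbp7, a secreted growth factor-binding protein, stood at 68.7, 106, 234 and 128 CPM against 13.0, 24.4, 10.6 and 16.8 CPM (3.06, adjusted p 2.4e-06). On the low side, Cd7, a T cell surface protein, stood at 19.1, 17.0, 7.90 and 17.6 CPM against 152, 105, 124 and 117 CPM (-3.00, SE 0.19, adjusted p 2.7e-08). Klf3 (-3.25, adjusted p 1.2e-05) and the Ly49 receptor genes Klra1 (-2.93) and Klra7 (-2.54) were lower. These 2 genes were not called among cells with Cd8 alone (-1.27, adjusted p 0.56, and -1.68, adjusted p 0.13). S100a8 and S100a9, which neutrophils make, were lower as well (-5.16 and -4.42).

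**Figure D3:**
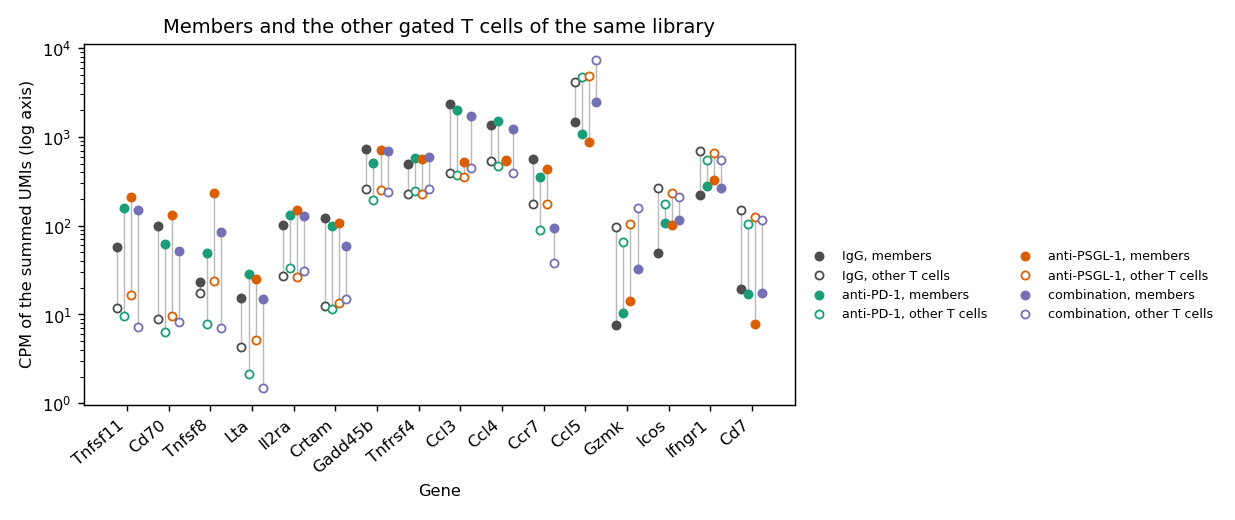
Summed level (y axis, CPM on a log axis) of 16 genes (x axis) in members (filled) and in the other gated T cells (open) of the same library, with 1 pair per library joined by a line. Tnfsf11, Cd70, Il2ra and Crtam are higher in members in all 4 libraries, and Ccl5, Gzmk and Cd7 are lower in all 4.

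Transcripts of macrophages, dendritic cells and neutrophils were rarer in members than in the other gated T cells of the same library. The summed macrophage and monocyte markers stood at 290.1, 255, 85.3 and 21.4 CPM in members and at 932, 415, 351 and 158 CPM in the others, with 2, 0, 3 and 6 of 9 genes at 0 in members. Dendritic cell markers stood at 935, 705, 862 and 32.7 CPM against 2199, 897, 1575 and 432 CPM, with 5, 1, 0 and 6 of 10 at 0. Neutrophil markers stood at 19.1, 3.93, 7.90 and 0 CPM against 268, 20.1, 208 and 63.5 CPM. The part of these transcripts in the lower levels of Cxcl2, Ccl6, Ccl22, S100a8 and S100a9 was not tested. NK cell markers stood at 435, 640.3, 270.0 and 749 CPM, against 545, 853, 576 and 856 CPM. Markers of type 2 innate lymphoid cells, a list that holds Gata3, Rora, Areg, Il13, Il5 and Il1rl1, stood at 870.2, 529, 1334 and 938 CPM against 375, 395, 337 and 440.3 CPM. Regulatory T cell markers other than Foxp3 stood at 1118, 1109, 1188 and 1107 CPM against 904, 879, 784 and 848 CPM.

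The receptors of these cytokines were read in other cells of the tumour as well as in members. Csf2ra and Csf2rb, the chains of the GM-CSF receptor, stood at 268, 269, 276 and 326 CPM and at 420.2, 507, 412 and 453 CPM in Csf1r-positive cells without CD3. In members Csf2ra stood at 0, 18.3, 12.6 and 5.03 CPM, and Csf2rb at 7.63, 45.8, 28.4 and 0 CPM. Xcr1 stood at 284, 272, 321 and 337 CPM in Clec9a-positive cells, a marker of type 1 conventional dendritic cells, and at 1.22 to 3.21 CPM in the Csf1r-positive cells. In members it stood at 0, 1.31, 25.3 and 0 CPM. Ccr8, the receptor of CCL1, stood at 26.7, 14.9, 24.5 and 31.8 CPM in Foxp3-positive T cells, beside the 5.24 to 26.8 CPM of members given above. No UMI of it was read in the Csf1r-positive, the Clec9a-positive or the Cd79a-positive cells of any library.

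Between treatments, levels in members were compared as ratios of CPM between 2 libraries, over genes at 50 CPM or more in either. Csf2 and Ccl1 are genes of the rule, whose fixed 2 UMIs admit a deeper cell at a lower CPM. The part of depth in their ratios was not tested. With 25, 54, 51 and 43 members behind 262012, 763661, 633248 and 795665 UMIs, single cells weighed on many ratios, so the number of cells and the ratio without the cell richest in the gene in each library are given for the genes named where that ratio moved by over 1.5 times. Anti-PD-1 against IgG had 8.86% of 3046 genes at 1.5-fold or more and 11.5% at the inverse or less. Anti-PSGL-1 against IgG had 11.8% and 17.1% of 3099, and the combination against IgG 11.0% and 11.6% of 3101. The combination against anti-PD-1 had 8.16% and 5.70% of 3002, and against anti-PSGL-1 13.9% and 10.3% of 3062. When each gene was taken without its richest cell in either library, the genes past 1.5-fold that were higher moved from 43.6% to 57.2%, from 40.8% to 51.9% and from 48.6% to 63.5% in the 3 comparisons with IgG, whose 25 members are the fewest.

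In the anti-PD-1 members Gzmf, Gzmd, Xcl1 and Tnfsf11 were above IgG, and Areg, Penk and Hist1h2ap below. Of 16 cytotoxic genes 5 were higher and 1 lower, beside the 8.86% and 11.5% of all genes. Gzmf stood at 1321 CPM in 17 of 54 cells and at 141 CPM in 5 of 25, a ratio of 9.36 (interval 6.74 to 13.4). The other gated T cells differed in the same direction, by 25.2. Gzmd stood at 904 against 145 CPM (6.23, 4.49 to 8.88), and at 14.7 without the richest cells. Gzmc, at 2802 against 2153 CPM, fell short of 1.5-fold. Gzma stood at 208 against 19.1 CPM, a ratio of 10.9 and of 26.5 without the richest cells. Among CD8 members it rested on 5 against 4 UMIs, with an interval of 0.0869 to 2.03. Xcl1 was 1.90 times as high (1.63 to 2.24), with 0.990 in the other gated T cells, and Tnfsf11 2.79 times (1.63 to 5.14), with 0.817 in those cells. Whether members and other cells differed in these ratios was not tested. Areg stood at 259 against 687 CPM (0.377, 0.307 to 0.464) and Penk at 41.9 against 145 CPM (0.289). Hist1h2ap, a replication-dependent histone gene, stood at 66.8 against 1313 CPM (0.0509), and at 0.204 in the other gated T cells. Ccl1 was lower, at 0.565 (0.499 to 0.640), while the interval of Csf2 held 1 (1.12, 0.820 to 1.55). Ifng, at 1.12, stood at 0.974 without the richest cells.

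In the anti-PSGL-1 members 6 of 11 secreted cytokines were above IgG and 3 below, and 3 of 6 TNF family ligands above and 1 below, beside 11.8% and 17.1% of all genes. Il13, a type 2 cytokine, stood at 403 CPM in 11 of 51 cells and at 3.82 CPM in 1 of 25, a ratio of 106 whose interval ran from 18.8 to 4183 because IgG held 1 UMI. Il5, its neighbour in the type 2 locus, stood at 196 CPM in 4 cells and was not read in IgG members, at least 17.1-fold higher against a floor of 3 UMIs in that library. Lgals7 stood at 393 against 22.9 CPM (17.2, 7.78 to 47.2), Tnfsf8 at 234 against 22.9 CPM (10.2, 4.58 to 28.3) and Tnfsf11 at 210.0 against 57.2 CPM (3.67, 2.15 to 6.74). Without the richest cells Lgals7 stood at 68.8 and Tnfsf8 at 27.5. Of 15 cytotoxic genes none was higher and 11 were lower, beside 17.1% of all genes. Prf1 stood at 111 against 565 CPM (0.196, 0.145 to 0.262), Gzme at 25.3 against 229 CPM (0.110, and 0.0327 without the richest cells) and Ccl3 at 523 against 2347 CPM (0.223, 0.194 to 0.255). Ifng was lower too, at 0.379 (0.335 to 0.428), and Csf2 higher, at 2.89 (2.17 to 3.92).

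The share of CD4 members also differed, 20 of 51 against 1 of 25, and its part in these differences was not tested. Cd4 itself stood at 155 against 3.82 CPM and Cd8a at 317 against 695 CPM. Among CD8 members alone, Il13 and Lgals7 rested on 1 UMI in each library, so no direction can be read from them. Tnfsf11 rested on 9 against 10 UMIs, Gata3 on 4 against 10 and Csf2 on 26 against 35, and all 3 intervals held 1 (0.281 to 2.14, 0.0795 to 1.20 and 0.373 to 1.10). Xcl1 stood at 4.67 (3.88 to 5.64) there, Prf1 at 0.424 (0.306 to 0.582), Ccl3 at 0.349 (0.300 to 0.405), Ifng at 0.488 (0.422 to 0.562) and Gzme at 0.217 (0.115 to 0.387), each in the direction of all members. Tnfsf8 rested on 22 against 1 UMI (3.09 to 789). Xcl1 stood at 2.16 among all members (1.85 to 2.54) and at 0.933 after thinning to 2000 UMIs.

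The combination members, compared with IgG, had higher levels of Gzmf and Gzmd and lower levels of Cd74, Ccl1 and Ccr7. Gzmf stood at 2287 CPM in 22 of 43 cells against 141 CPM (16.2, 11.7 to 23.1) and Gzmd at 1176 against 145 CPM (8.11, 5.87 to 11.5), beside 24.8 and 14.7 in the other gated T cells. Without the richest cells Gzmd stood at 22.8. Of 16 cytotoxic genes 7 were higher and 1 lower. Gzmc was the lower one (0.603), but it stood at 2.01 without the richest cells and at 2.65 among CD8 members. Of 8 inhibitory receptors and exhaustion genes 6 were higher, Havcr2 among them, at 159.6 against 61.1 CPM (2.61, 1.55 to 4.71). Of 14 heat shock and dissociation genes 6 were higher and none lower, beside 11.0% and 11.6% of all genes. Hspa1a stood at 554 CPM in 9 cells, 44.7% of it in 1 cell, against 19.1 CPM (29.0). Hspa1a and Hspa1b are near-identical, so their counts may be affected by reads that match both. Cd74, the invariant chain of MHC class II, stood at 26.4 against 1080.1 CPM (0.0244), of which 1 IgG member held 75.6%, and the ratio was 0.0794 without it. The other gated T cells had a ratio of 0.185, and dendritic markers were at 32.7 against 935 CPM in members. Their part in the difference was not tested. Csf2 stood at 2.41 (1.81 to 3.26) and, without the cell with 293 UMIs and the richest IgG cell, at 0.918. Ccl1 was lower at 0.213 (0.182 to 0.249) and at 0.225 without the richest cells, and Ccr7 was lower at 0.167 (0.125 to 0.222). The combination members were deeper than those of IgG (medians of 19725 and 9714 UMIs), and the part of depth in the Ccl1 ratio was not tested.

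Against the single antibodies, the combination members had 743 genes past 1.5-fold from anti-PSGL-1 and 416 from anti-PD-1. These comparisons share the combination library. Against anti-PD-1, Spp1, which encodes osteopontin, stood at 1766 against 357 CPM (4.94, 4.34 to 5.64), Areg at 652 against 259 CPM (2.52, 2.13 to 2.98) and Egr1 at 106 against 22.3 CPM (4.74, 2.79 to 8.52). Ccl1 stood at 0.377 (0.326 to 0.435), Xcl1 at 0.591 (0.535 to 0.653) and Il2 at 0.0835 (0.0218 to 0.229), the last from 3 against 4 cells. Without the richest cells Xcl1 stood at 0.312 and Il2 at 0.127. Of 16 cytotoxic genes 2 were higher and 2 lower, beside 8.16% and 5.70% of all genes. Against anti-PSGL-1, 13 of 16 cytotoxic genes were higher and none lower, beside the 13.9% and 10.3% of all genes. Gzmf stood at 2287 against 50.5 CPM (45.3, 31.9 to 66.4) and at 23.7 among CD8 members. Ccl3 stood at 1721 against 523 CPM (3.29, 2.92 to 3.72) and Ifng at 1895 against 797 CPM (2.38, 2.15 to 2.63). Without the richest cells Gzmf stood at 145, Ccl3 at 5.26 and Ifng at 3.65. Il13 was not read in any combination member, at least 107-fold lower against the floor of 3 UMIs. Among CD8 members it rested on 0 against 1 UMI, so no direction can be read there. CD4 members numbered 5 in the combination and 20 in anti-PSGL-1, and their part in the Il13 difference was not tested. Il5 was read in 1 CD4 member of the combination and in 2 of its members with both Cd4 and Cd8. Tnfsf8 was lower at 0.360 (0.266 to 0.484) and Rora, a factor of type 2 and innate-like lymphocytes, at 0.413 (0.330 to 0.515), which were 0.0211 (from 1 against 22 UMIs) and 0.160 among CD8 members.

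The levels of the 2 targeted receptors are given for reference. Pdcd1 in members was 1.25 (0.994 to 1.58), 0.908 (0.712 to 1.16) and 1.49 (1.19 to 1.87) times the IgG level after anti-PD-1, after anti-PSGL-1 and after the combination. Selplg was 0.937, 1.12 and 1.26 times the IgG level, and all 3 intervals held 1.

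**Figure D4:**
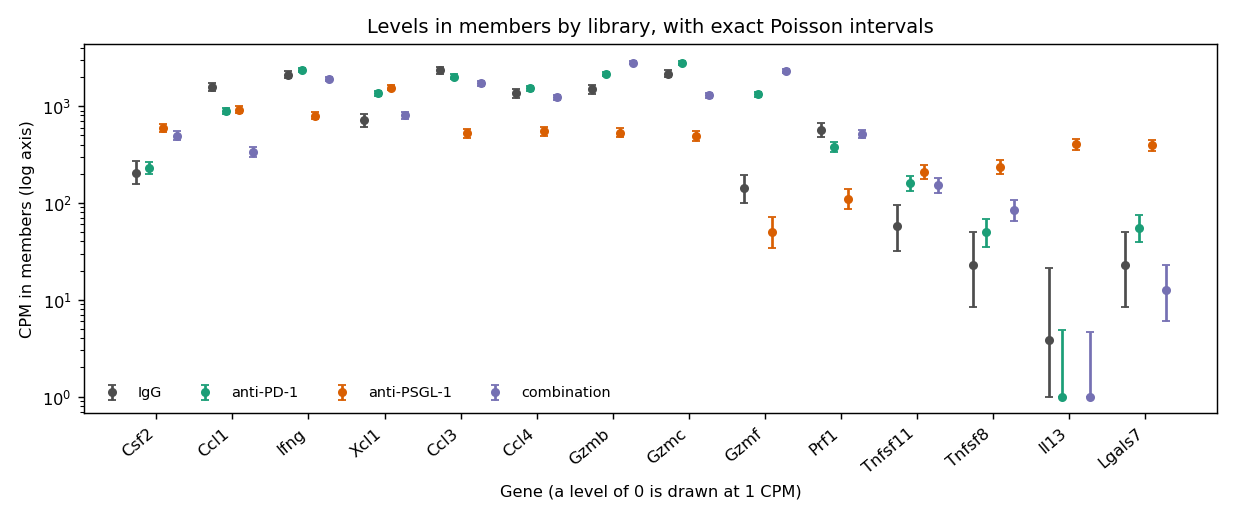
Summed level in members (y axis, CPM on a log axis, with levels of 0 drawn at 1 CPM) of 14 genes (x axis) in each library, with exact 95% Poisson intervals that cover counting error only. The anti-PSGL-1 members are lowest for Ifng, Ccl3, Ccl4, Gzmb, Gzmc, Gzmf and Prf1 and highest for Tnfsf8, Il13 and Lgals7, and the combination members are lowest for Ccl1. Csf2 and Ccl1 are genes of the rule, so a deeper cell can be a member at a lower level of them.

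The anti-PSGL-1 library held 20 CD4 and 20 CD8 members at like depth, with medians of 10644 and 11642 UMIs, so both could be described side by side. The genes below were chosen after their values were seen, and cells of 1 library are not replicates, so no test was made. Csf2 and Ccl1 belong to the rule, so their levels describe members and not CD4 and CD8 T cells at large. Members of both lineages held Ccl1 at like levels, 839.9 CPM (729 to 963) in CD4 and 925 CPM (811 to 1051) in CD8 members. Csf2 stood at 901 CPM (786 to 1029) in the CD4 members, read in 12 of 20 cells, and at 102 CPM (66.6 to 149) in the CD8 members, read in 7 of 20. One CD4 cell held 115 of the 220 Csf2 UMIs.

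Il13, Lgals7, Tnfsf11 and Tnfsf8 stood higher in the CD4 members. Il13 was read in 9 of the 20 CD4 members, at 1032 CPM (909 to 1168), and as 1 UMI in the CD8 members. Il5 was read in 4 and Il4 in 3 CD4 members and in no CD8 member. Gata3, the factor of T helper 2 cells, stood at 197 against 15.7 CPM, Lgals7 at 959 against 3.92 CPM, Tnfsf11 at 430.2 against 35.3 CPM and Tnfsf8 at 426 against 86.3 CPM. Cd40lg stood at 57.4 CPM in 8 CD4 members and was not read in the CD8 members. Igfbp7 stood at 459 against 86.3 CPM. Ebi3, a subunit of heterodimeric cytokines, stood at 147 CPM in 13 CD4 members against 11.8 CPM.

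Xcl1, Ccl3, Ccl4, Gzmb and Prf1 stood higher in the CD8 members. Xcl1 stood at 2886 CPM (2681 to 3102) in 15 of 20 CD8 members and at 53.3 CPM (28.4 to 91.1) in 3 CD4 members. Ccl3 stood at 968 against 8.19 CPM, Ccl4 at 976 against 16.4 CPM, Gzmb at 906 against 36.9 CPM and Prf1 at 235 against 4.10 CPM. Crtam stood at 125 CPM in 10 CD8 members and was not read in CD4 members, and Ikzf2, which encodes Helios, stood at 463 against 36.9 CPM. Ifng was read in both, at 1184 CPM in 15 CD8 and 533 CPM in 13 CD4 members. One CD8 cell held 210 of the 302 Ifng UMIs of the CD8 members, and without the richest cell of each group Ifng stood at 380.2 and 390.4 CPM. Without the richest cells the CD8 members stood at 1880.3 CPM for Xcl1, 364 for Ccl3, 471 for Ccl4 and 571 for Gzmb, and the CD4 members at 449.6 CPM for Csf2, 745 for Il13 and 677 for Lgals7. Il2ra (149 and 156 CPM), Pdcd1 (399.9 and 356 CPM) and Runx3 (286 and 311 CPM) had overlapping intervals.

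**Figure D5:**
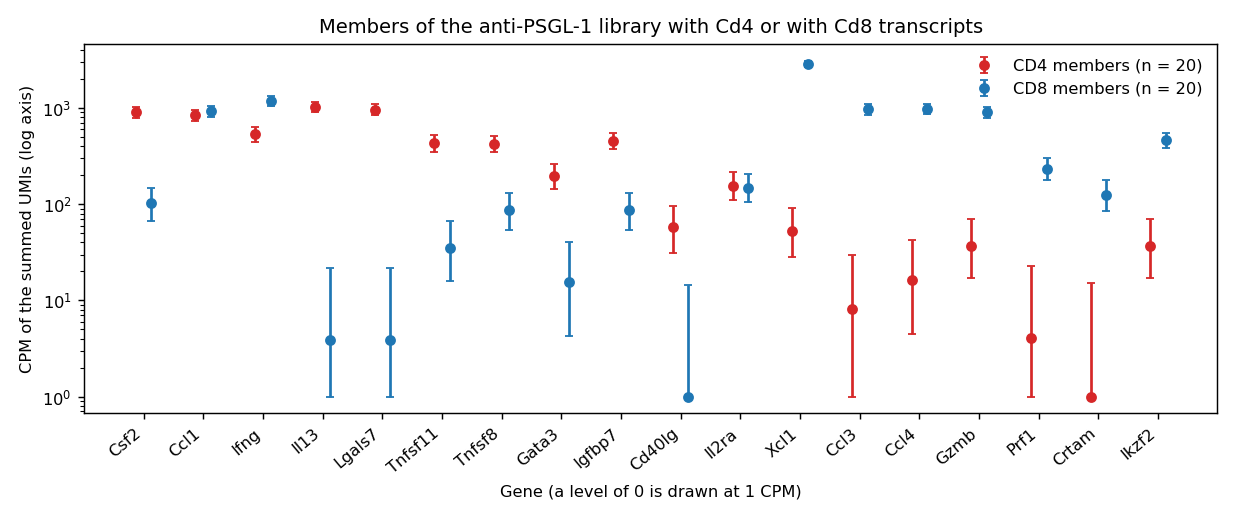
Summed level (y axis, CPM on a log axis, with levels of 0 drawn at 1 CPM) of 18 genes (x axis) in the 20 CD4 and 20 CD8 members of the anti-PSGL-1 library, with exact 95% Poisson intervals. Ccl1 and Il2ra lie at like levels, Csf2, Il13, Lgals7 Tnfsf11 and Tnfsf8 are higher in CD4 members, and Xcl1, Ccl3, Ccl4, Gzmb and Prf1 are higher in CD8 members.

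Across the CD8 members of the 4 libraries, Ccl1 stood at 1164, 879, 925 and 326 CPM, read in 17 of 19, 39 of 47, 17 of 20 and 22 of 27 cells. Ifng stood at 2428, 2563, 1184 and 2232 CPM and Xcl1 at 618, 1431, 2886 and 1149.9 CPM. Gzmb stood at 1634, 2212, 906 and 3353 CPM, so that the anti-PSGL-1 library was lowest for Ifng and Gzmb and highest for Xcl1 also within this lineage. Cd70 stood at 104, 64.1, 102 and 32.8 CPM, and Crtam at 144, 109, 125 and 85.7 CPM with overlapping intervals in neighbouring libraries.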

How the data were processed

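Deposited values were raw UMI counts per gene and cell barcode from 3' single-cell libraries, 1 per treatment; the submitters' processing notes name Cell Ranger 3.1.0, FastQC and mm10, and no header records further steps by the authors. Kept cells, gated T cells and members followed the rule in the text, and barcodes of 4 libraries (27998 genes) were read with scanpy 1.11.5 and scipy 1.17.1. Doublets were kept: scrublet's own threshold called 1, 84, 0 and 42 cells and so did not work, and an alternative removed the highest scores at 0.8% per 1000 cells. Members and other gated T cells were summed per library and compared with edgeR 4.0.16 (limma 3.58.1, R 4.3.3; quasi-likelihood, library as block, Benjamini-Hochberg) and, as an alternative, DESeq2 1.42.0, after tests on simulated data. These p-values measure the spread among 4 libraries that also differ in treatment. Between libraries, ratios of CPM have exact intervals and no test.

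Members and gene lists were chosen with earlier results of these data known. Named genes are the rule genes and markers, the 10 genes called higher and the 10 called lower with the largest folds at 20 CPM or more, and up to 4 called genes of each list each way. For ratios between libraries they are the 5 highest and 5 lowest by the interval bound nearest 1 at 50 CPM or more, and up to 2 genes of each list each way. Other genes, the promoter motifs and the genes plotted were picked after their values were seen. Genes of T cell and B cell receptors, mitochondria, ribosomal proteins, haemoglobin, melanoma and erythroid cells, sex-linked genes and unnamed clones were not named. Some genes that the rule names are not reported here.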

Additional observations from a re-analysis of the deposited data

Results flagged for a closer look

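For 11 genes of the fixed lists, members lay at least 1.5-fold above the other gated T cells in 1 library and at least 1.5-fold below them in another, with both counting intervals off 1; the difference between the libraries was not tested. Heat shock and immediate early genes were above in the combination and below in IgG: Hspa1a at 5.08 and 0.0786 times the other cells (44.7% of it in 1 combination cell), Hspa1b at 4.99 and 0.0280, Fosb at 2.46 and 0.322, and Jun at 2.04 and 0.156.

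The transcription factors Batf and Rora and the interferon-induced gene Ifi27l2a were above in anti-PSGL-1 and below in IgG, at 1.76 and 0.500, 2.05 and 0.524, and 1.86 and 0.549. Cxcl9, a chemokine induced by interferon-gamma, stood at 3.05 in anti-PSGL-1, all of it in 1 cell, and at 0.174 in IgG. Spp1 stood at 4.97 in IgG, with 59.9% in 1 cell, and at 0.370 in anti-PSGL-1. Il7r, the IL-7 receptor, stood at 2.30 in the combination and at 0.403 in anti-PSGL-1, and Rrm2, a gene of DNA synthesis, at 1.95 in IgG and 0.570 in the combination.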

How the results depend on the processing

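Thinning cells to 2000 UMIs and applying the rule again left 81 members and shares of 0.467%, 1.43%, 1.10% and 0.609%. A threshold of 3 UMIs gave 2.21% for anti-PD-1 and 1.37% for the combination, and cells of 5000 to 15000 UMIs gave 1.74% for IgG. Against the other gated T cells, genes higher fell to 135 without the library block and 117 after thinning, and genes lower to 134 and 247, and to 272 with DESeq2. Leaving out 1 library gave 241 to 256 higher and 294 to 372 lower. Named calls were lost for 47 genes of 80 without the library block, 16 after thinning, 17 at 5000 to 15000 UMIs, 13 among cells with Cd8 alone and 8 with DESeq2. Signs turned for Ier3 (0.09) and Gata3 (-0.01) among cells with Cd8 alone and for Rrp9 (-0.09) at 5000 to 15000 UMIs. The cause was not tested.

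Genes past 1.5-fold between libraries numbered 619, 894 and 703 against IgG, and 416 and 743 for the combination against anti-PD-1 and anti-PSGL-1. After thinning they numbered 1956, 2191, 2026, 1564 and 1812, and at 100 CPM or more 211, 363, 274, 172 and 360. Requiring an interval off 1, an alternative added after seeing the data, left 333, 511 and 369 against IgG. It left 366 and 657 for the combination against anti-PD-1 and anti-PSGL-1. CD8 members alone gave 1126 for the combination against anti-PSGL-1. Ratios on the other side of 1 among CD8 members were Gzma (0.404, anti-PD-1 against IgG), Il13 and Lgals7 (0.869), Tnfsf11 (0.782), Gata3 (0.347) and Csf2 (0.645) for anti-PSGL-1 against IgG, Gzmc (2.65, combination against IgG) and Lgals7 (1.39, combination against anti-PSGL-1). Only the interval of Gzmc left out 1 there (2.21 to 3.20), and Il13 and Lgals7 against IgG rested on 1 UMI in each library. Thinning turned Xcl1 for anti-PSGL-1 against IgG (0.933) and the combination against anti-PSGL-1 (1.05). Leaving out the richest cell of each library, also added after seeing the data, turned Gzmc (2.01) and Csf2 (0.918) for the combination against IgG, and Csf2 (0.665) against anti-PD-1. No paired analysis was possible because each treatment has 1 library, which concerns comparisons between treatments; members and other cells were compared with the library as a block.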
